A study of Mus musculus with 4 samples.

Results

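The mRNA levels of 5 genes with roles in mitosis, Mki67, Cenpe, Cenpf, Aspm and Top2a, were compared between 3T3-L1 cultures that received bilberry extracts, delphinidin or cyanidin. The genes were taken by name from the array, which gave 14 probes of 41174 and 5 genes of 21593 with a value. Mki67, Cenpe and Cenpf were selected on their low bilberry to DMSO ratio in these same data, at which other cell cycle genes had higher ratios, so their bilberry values and their contrast with those genes are a description. Aspm and Top2a were added as other long mitotic mRNAs for comparison, and "long" is a general description of these transcripts, since transcript lengths were not analysed here.

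3T3-L1 is a mouse preadipocyte line that turns into fat-storing adipocytes when insulin, dexamethasone and IBMX are given to confluent cells. All 4 cultures were induced in this way on day 0 and harvested on day 2, with 0.1% DMSO, 100 µg/ml bilberry extract, 100 nM delphinidin or 100 nM cyanidin in the medium. The DMSO culture was the control, and each condition was measured once, on 1 one-colour Agilent array of the same slide. With 1 array per condition the differences had no replicate check, and no test was made. Per the study's methods the additives were dissolved in DMSO, and all 4 cultures held DMSO at 0.1%. A probe is called detected where the scanner software marked it as well above background. On all 4 arrays 10 of 10 fibroblast and preadipocyte markers and 9 of 10 adipocyte markers were detected. Of 10 markers of other cell types 3 were detected on all 4 arrays and 7 on none.

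Preadipocytes that have been grown to confluence go through a wave of cell division after induction, before they differentiate. DNA is copied first, then chromosomes are condensed and attached through kinetochores to the spindle. Many mRNAs of the later steps, including those of the 5 genes, peak in G2 and mitosis, and a short element called the cell cycle genes homology region (CHR) together with CCAAT boxes is known from promoters of this class.

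The promoter windows of the 5 genes are printed because the comparison turns on genes of 1 functional class whose bilberry ratios differed in size. Each window holds 250 bases before and 50 bases after the gene start, 300 in all, on the strand of the gene, from RefSeq sequence of GRCm38.p6. Capitals mark the CHR letters TTTGAA, the CHR variant TTCGAA and the CCAAT box CCAAT on either strand (TTCAAA and ATTGG are the reverse forms). The forward CCAAT box and the CHR can share an end base, and of 23 matches in the 5 windows 0 overlapped.
Mki67 (chr7:135716330-135716629, minus strand): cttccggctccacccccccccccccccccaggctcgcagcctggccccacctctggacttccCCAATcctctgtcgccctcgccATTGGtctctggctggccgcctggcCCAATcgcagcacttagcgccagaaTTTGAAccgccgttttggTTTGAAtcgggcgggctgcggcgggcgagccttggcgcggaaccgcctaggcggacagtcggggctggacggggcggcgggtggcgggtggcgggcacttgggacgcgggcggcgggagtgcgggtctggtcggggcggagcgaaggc
Cenpe (chr3:135212313-135212612, plus strand): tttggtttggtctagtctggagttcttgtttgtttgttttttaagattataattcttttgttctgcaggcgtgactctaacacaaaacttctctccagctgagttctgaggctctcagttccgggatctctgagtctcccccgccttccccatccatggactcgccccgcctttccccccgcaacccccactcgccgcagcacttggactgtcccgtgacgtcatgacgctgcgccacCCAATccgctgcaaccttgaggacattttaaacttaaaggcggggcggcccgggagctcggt
Cenpf (chr1:189688037-189688336, minus strand): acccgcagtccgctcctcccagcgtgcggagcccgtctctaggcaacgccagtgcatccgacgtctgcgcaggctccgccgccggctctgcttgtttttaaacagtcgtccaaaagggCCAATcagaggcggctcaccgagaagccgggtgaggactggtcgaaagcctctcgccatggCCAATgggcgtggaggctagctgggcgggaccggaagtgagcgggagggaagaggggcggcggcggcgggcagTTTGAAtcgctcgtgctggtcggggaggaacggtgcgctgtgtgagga
Aspm (chr1:139454523-139454822, plus strand): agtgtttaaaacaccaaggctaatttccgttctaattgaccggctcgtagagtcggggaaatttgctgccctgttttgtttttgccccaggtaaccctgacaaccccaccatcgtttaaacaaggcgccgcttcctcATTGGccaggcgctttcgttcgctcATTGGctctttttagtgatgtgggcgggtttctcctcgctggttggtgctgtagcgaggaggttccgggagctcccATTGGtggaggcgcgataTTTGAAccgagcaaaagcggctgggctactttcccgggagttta
Top2a (chr11:99024140-99024439, minus strand): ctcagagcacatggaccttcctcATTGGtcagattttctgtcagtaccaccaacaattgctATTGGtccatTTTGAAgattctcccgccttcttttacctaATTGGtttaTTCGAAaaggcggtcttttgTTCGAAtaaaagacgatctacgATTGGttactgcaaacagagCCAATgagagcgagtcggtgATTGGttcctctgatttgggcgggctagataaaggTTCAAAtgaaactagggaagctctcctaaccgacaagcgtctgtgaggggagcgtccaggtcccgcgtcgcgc

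CHR letters stood in the windows of 4 of 5 genes, all but Cenpe, against 17.9% of 32851 mouse promoter windows of the same length. A CCAAT box stood in 5 of 5 windows against 37.4% of all windows, and at least 2 CCAAT boxes stood in 4 of 5 against 11.7%. CHR or variant letters together with a CCAAT box were found in 4 of 5 windows and in 7.52% of all windows. The window of Top2a held the most matches of the 5, with 2 CHR, 2 CHR variants and 6 CCAAT boxes. The window of Cenpe held a single CCAAT box, whose first base lay at position -12 from the gene start. The motif content therefore did not separate Mki67, Cenpe and Cenpf from the other 2 genes. A match is a run of letters, and no binding was measured.

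The values below are given as the level, which is the processed signal of a spot over the 75th percentile of all non-control spots of the array, so that a level of 1 equals a fairly bright gene of that array. A log2 ratio compares the level of a treated array with that of the DMSO array. Its error comes from the error model of the scanner software and covers 1 spot on each array, not the culture. Probe coordinates were taken as deposited, on mm8. Whether a probe lies in an exon, intron or UTR was not analysed here, and 5 of the 14 probes span over 60 bases of genome, the length of a probe, and so cross a splice junction. Levels of different probes are not compared with each other.

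Mki67 encodes a protein that coats mitotic chromosomes and is a widely used marker of dividing cells. Its probe nearest to the 3′ end, at chr7:135528251-135528310 on the minus strand, had levels of 7.50, 0.751, 11.4 and 9.37 on the DMSO, bilberry, delphinidin and cyanidin arrays. The array with bilberry stood far below the other arrays, and both anthocyanidin arrays stood above DMSO. The level was 9.99-fold lower with bilberry, a log2 ratio of -3.32 with an error of 0.20. The log2 ratio was 0.61 with delphinidin and 0.32 with cyanidin, each with an error of 0.20. The other probe of the gene lay 4421 bases farther upstream, at chr7:135532672-135532731, with levels of 1.48, 0.159, 2.32 and 2.08 in that order of arrays, which is kept below. Its level was 9.33-fold lower with bilberry, so both probes of Mki67 gave nearly the same ratio. An alternative was normexp, a model-based background correction that adds 50 to each corrected signal, which draws the ratios of dim probes together. Its fit gave a background mean of -345 on the bilberry array, against -6.15 to -3.88 on the others. In a refit without spots of marked local background the bilberry mean was -5.65. The 2 probes were at -3.05 and -1.53 under normexp and at -3.19 and -2.62 under the refit.

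Cenpe encodes a kinesin motor of the kinetochore that moves chromosomes to the middle of the spindle. Its 3′ probe at chr3:135210810-135210869 on the plus strand had levels of 16.0, 1.44, 19.3 and 14.4. The level was 11.1-fold lower with bilberry, a log2 ratio of -3.48 with an error of 0.20. With cyanidin the log2 ratio of -0.15 was smaller than its error of 0.20, and with delphinidin it was 0.28. The middle probe, at chr3:135206473-135208085, had levels of 0.233, 0.0259, 0.306 and 0.262, and was 8.98-fold lower with bilberry. The 5′ probe at chr3:135155915-135156056 had levels of 0.0440, 0.00532, 0.0707 and 0.0511. That probe was not well above background with bilberry, where only a bound can be given, at least 1.95-fold lower than DMSO. All 3 probes of Cenpe, spread over 54813 bases of genome, were lower with bilberry than on each other array. Under normexp this held only for the 3′ probe, at -3.59, while the middle and 5′ probes were at 0.57 and 2.04. These values carry the bilberry background mean of -345. Under the refit the 3 probes were at -3.44, -1.25 and -0.12. There the added 50 compares with processed bilberry signals of 14.9 and 3.07 at the middle and 5′ probes.

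Cenpf encodes a large coiled-coil protein that binds to kinetochores and microtubules. Its bright probe at chr1:191342843-191342902 on the minus strand had levels of 2.58 with DMSO, 0.355 with bilberry, 3.00 with delphinidin and again 2.58 with cyanidin. The bilberry level was 7.27-fold lower, a log2 ratio of -2.86 with an error of 0.21, which was -1.82 under normexp. DMSO and cyanidin could not be told apart, at a log2 ratio of 0.00 with an error of 0.20. The other probe, 956 bases nearer to the 3′ end at chr1:191341887-191341946, was well above background only with cyanidin. Its levels were 0.00920, 0.00452, 0.00979 and 0.0193, and the cyanidin level was at least 1.27-fold higher than with DMSO. Only the bright probe therefore carries the bilberry value of Cenpf.

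Aspm encodes a spindle pole protein needed for symmetric division of neural progenitors. Its 3′ probe at chr1:141306729-141306788 on the plus strand had levels of 0.266, 0.159, 0.356 and 0.340. The order of the arrays was that of Mki67, but the log2 ratio of -0.75 with bilberry (error 0.21) was not past 2-fold, and it was 0.67 under normexp, where the median of all genes was 1.41. Under the normexp refit this ratio was -0.43. The log2 ratios with delphinidin and cyanidin were 0.42 and 0.35, each with an error of 0.20. The second probe, at chr1:141290352-141290675, had levels of 0.0161, 0.0215, 0.0210 and 0.0184 and was not well above background with bilberry. Its log2 ratios were 0.38 with delphinidin (error 0.38) and 0.19 with cyanidin (error 0.39). The other 2 probes, at chr1:141274089-141274148 and chr1:141273015-141273074, were detected on none of the arrays, so the bilberry value of Aspm rested on 1 probe.

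Top2a encodes topoisomerase II alpha, which untangles sister chromatids before they separate. Its 3′ probe at chr11:98812020-98812834 on the minus strand had levels of 1.79, 1.71, 3.71 and 3.46. DMSO and bilberry differed by less than the error, at a log2 ratio of -0.07 with an error of 0.20. Both anthocyanidins gave about the same higher level, with log2 ratios of 1.05 and 0.95. The 5′ probe at chr11:98831137-98832164 had levels of 0.261, 0.503, 0.583 and 0.489, so here bilberry stood with the anthocyanidins. Its log2 ratio with bilberry was 0.95 with an error of 0.21, or -0.58 when the arrays were scaled by spike-in controls in place of the 75th percentile. Delphinidin was 2.24-fold and cyanidin 1.87-fold higher than DMSO at this probe. The probe between them, at chr11:98813808-98813867, had levels of 0.0155, 0.0228, 0.0169 and 0.0143 and was detected only with delphinidin and cyanidin. None of the 3 probes of Top2a was lower past 2-fold with bilberry in this scaling, but the 3′ probe was at -1.60 with spike-in scaling.

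**Figure D1:**
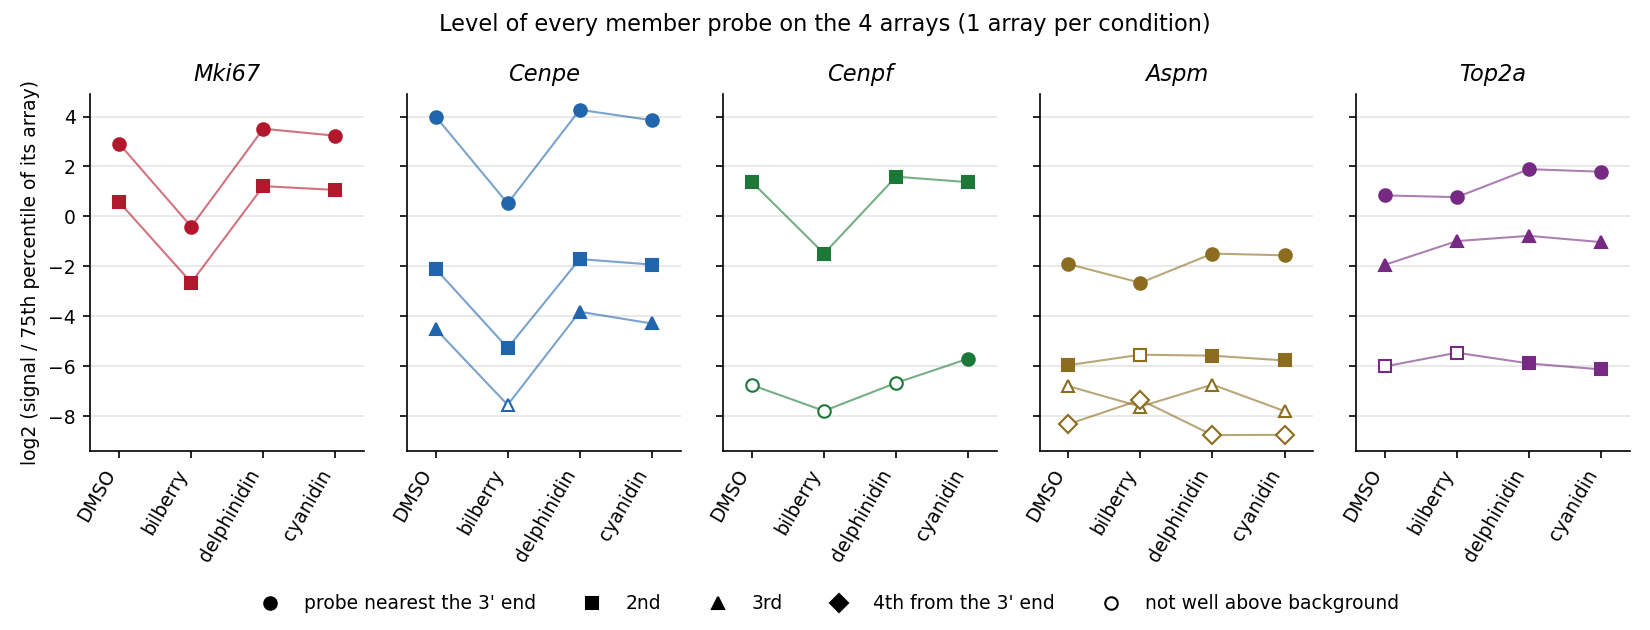
Level of each of the 14 probes on the 4 arrays, as log2 of the processed signal over the 75th percentile of its array, with 1 point per array, a line per probe and open symbols where the probe was not well above background. The probes of Mki67, Cenpe and the bright probe of Cenpf dip with bilberry, whereas the 3′ probe of Top2a is level between DMSO and bilberry and higher with both anthocyanidins.

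The measured level with bilberry, detected or not, was over 2-fold lower than with DMSO at 7 of 14 probes, and over all probes 7.41% were lower by this measure. For 2 of the 7 the signal does not establish a 2-fold difference, since the 5′ probe of Cenpe has a bound of 1.95-fold and the dim Cenpf probe was detected with neither DMSO nor bilberry. These 7 were the 7 probes of Mki67, Cenpe and Cenpf, which the choice of genes had fixed, and 0 of the 7 probes of Aspm and Top2a were among them. Over 2-fold higher levels with bilberry were found at 0 of 14 probes against 6.49% of all probes. Under normexp 4 of the 14 were lower and 7 higher, where 1.93% of all probes were lower and 62.6% higher, and with spike-in scaling 11 were lower and 0 higher, where 59.8% of all probes were lower and 0.668% higher. In all, 8 of the 14 probes were detected on all 4 arrays. Of these 8, 5 were lower past 2-fold (6.94% of all such probes) and 0 higher (4.17%), and the 5, which belong to Mki67, Cenpe and Cenpf, had log2 ratios between -3.48 and -2.86. Among 12896 genes whose brightest probe was detected on all 4 arrays, Cenpe ranked 6, Mki67 7 and Cenpf 18 from the lowest bilberry ratio. Aspm ranked 1317 and Top2a 4425 in the same order, so 34.3% of genes had a lower bilberry ratio than Top2a. The median bilberry ratio of all genes was 1.41 under normexp and -1.17 with spike-in scaling, so the sign and the call of a gene under these settings are to be read against that median. Over all genes the median log2 ratios for bilberry, delphinidin and cyanidin were 0.36, -0.14 and -0.12, and over the 12896 genes 0.16, -0.02 and 0.01.

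The bilberry array stood apart from the other arrays in its overall brightness. Its 75th percentile was 576, against 861 with DMSO, 1009 with delphinidin and 1016 with cyanidin. The 10 spike-in controls, RNA added in fixed amounts during labelling, were brighter on the bilberry array than with DMSO by a median of 0.95 on the log2 scale. Scaling by the spike-ins moved the bilberry ratio of every gene by -1.53, that of the brightest probe of Mki67 to -4.85, Cenpe to -5.01, Cenpf to -4.39, Aspm to -2.28 and Top2a to -1.60. All 5 genes were then lower past 2-fold, with their distances from each other unchanged. The part of this difference in the values of the 5 genes was not tested. Spots around the member spots, within 10 rows and columns, had median log2 ratios between 0.30 and 0.53 with bilberry. These spots included undetected ones, and the median over all genes was 0.36. The part of the place on the array in the values of Mki67, Cenpe and Cenpf was not tested. No member spot was saturated or marked by the scanner software. In RNA from a whole culture, fewer dividing cells and less of an mRNA per dividing cell cannot be told apart. The paper states, without showing the data, that cell proliferation was not affected by the extracts.

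Of the 8 probes detected on all 4 arrays 8 were above DMSO with delphinidin and 6 with cyanidin, against 46.0% and 48.8% of all 21441 such probes. Past 2-fold, delphinidin gave 2 higher probes, both of Top2a, where 2.64% of all probes were higher, and 0 lower probes, where 4.26% were lower. Cyanidin gave 1 higher measured level, at the dim Cenpf probe, whose bound was only 1.27-fold, where 2.18% of all probes were higher, and 0 lower probes, where 5.23% were lower. Among the 12896 genes, 98.9% had a lower delphinidin ratio than Top2a and 96.1% a lower one than Mki67. For cyanidin these shares were 99.3% and 87.1%. For Aspm, Cenpe and Cenpf the shares were 92.4%, 85.7% and 80.9% with delphinidin, and 89.0%, 29.5% and 48.9% with cyanidin. The ratios of all 3 treatments share the DMSO array, so a DMSO level that was low by error would move them together.

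Delphinidin and cyanidin are anthocyanidins of bilberry that differ by a further hydroxyl group on the B-ring of delphinidin, and both were given at 100 nM until day 2. This was the only pair with a matched dose and time, since bilberry was dosed by weight. Over the 8 probes detected on all 4 arrays the delphinidin level was higher than the cyanidin level at 8, by a log2 difference of 0.07 to 0.43. Over all 21441 such probes delphinidin was higher at 46.6%, with a median difference of -0.02. The scanner error of each such difference was 0.20 or slightly above. The difference was 0.28 and 0.16 at the probes of Mki67, 0.43 and 0.22 at the bright and middle probes of Cenpe, 0.22 at the bright probe of Cenpf, 0.07 at the 3′ probe of Aspm, and 0.10 and 0.25 at the bright probes of Top2a. Past 2-fold there was 1 of 14 probes, a probe of Aspm detected on none of the arrays, against 3.55% of all probes higher and 2.81% lower. Without replicates no interval over cultures can be given, so it cannot be said whether the 2 compounds act alike on these genes.

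The probes of a gene were set side by side by their place along the transcript, since arrays of this kind are labelled from the 3′ end. For pairs of probes of 1 transcript that were both detected, the log2 ratio of the 5′ probe minus that of the 3′ probe was -0.02 with bilberry as a median over 3622 transcripts. In the 2622 pairs that lay over 1000 bases apart in the genome the 5′ probe was lower in 50.3%. The difference was 0.10 for Mki67 and 0.31 for Cenpe, and in these distant pairs 80.1% and 47.1% had a larger gap in either direction. For Top2a the 5′ probe was higher by 1.02 over 19117 bases of genome, and 6.45% of the distant pairs had a larger gap. The same Top2a difference was 0.11 with delphinidin and -0.04 with cyanidin. The 2 bright probes of Cenpe were at -3.44 and -1.25 under the normexp refit and at -3.59 and 0.57 under normexp. Both add 50 to each corrected signal, and the middle probe had processed signals of 201 with DMSO and 14.9 with bilberry. The shares of background correction and of the added 50 in this gap were not separated.

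**Figure D2:**
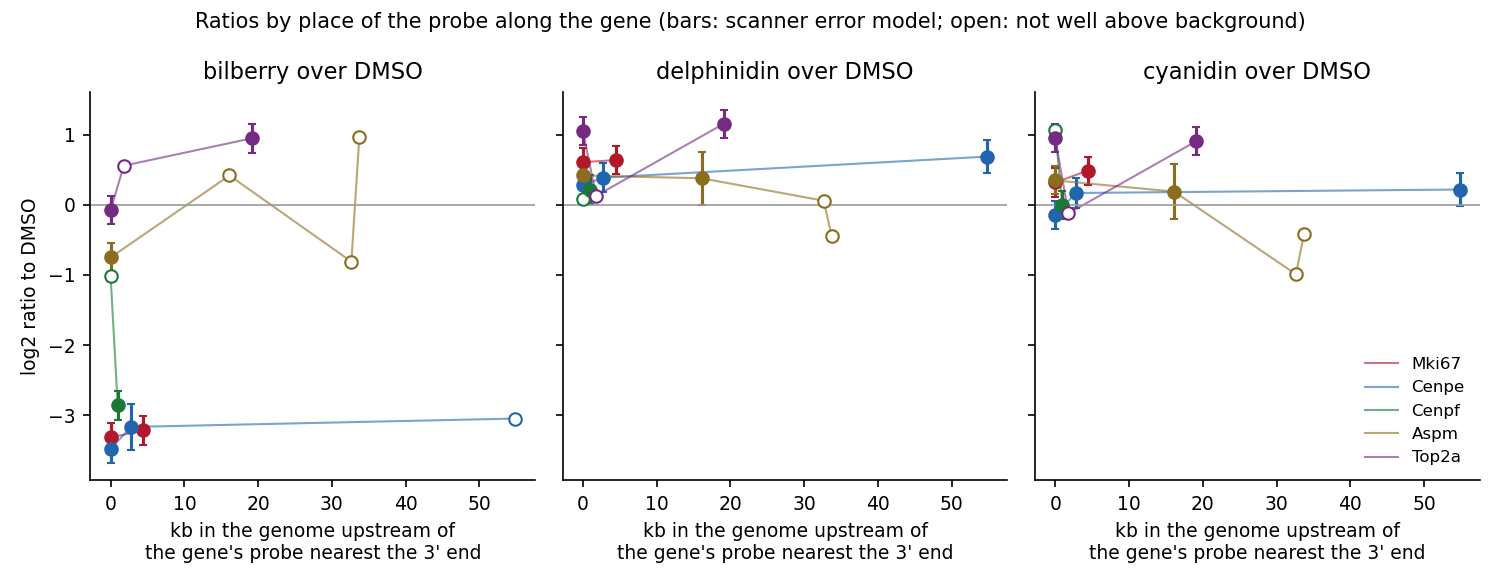
Log2 ratio to DMSO of each probe against its distance in the genome, in kb, upstream of the probe of the gene nearest to the 3′ end, in a panel per treatment. Bars give the scanner error of probes well above background on both arrays, and open symbols are the other probes. With bilberry the 5′ probe of Top2a at 0.95 lies above its 3′ probe at -0.07. The detected probes of Mki67 and Cenpe lie between -3.48 and -3.17. This range holds for neither gene under normexp, with its background mean of -345 for bilberry, or under its refit.

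Other genes of the cell cycle were described from 5 lists written from general knowledge. All ratios are relative to the 75th percentile of each array, and under spike-in scaling the median bilberry ratio of every list was below 0. Over the 5 lists together, of 24 to 49 genes with a value each, 27 genes were higher and 14 lower past 2-fold with bilberry. The counts were 23 and 5 under normexp, and 0 and 106 with spike-in scaling. By the median over the probes of a gene they were 25 and 10. Of all probes 62.6% were higher and 1.93% lower under normexp, and 1.38% and 1.95% under its refit. With spike-in scaling 0.668% were higher and 59.8% lower. The list counts below are to be read against these shares. Of 39 kinetochore and centromere genes with a value 2 were over 2-fold lower with bilberry (5.13%) and 0 higher, where 7.29% of all genes were lower and 6.58% higher, and their median log2 ratio was 0.29 (-1.24 with spike-in scaling). Past 2-fold, 0 of these genes were lower and 4 higher under normexp, 1 and 0 under its refit, and 29 and 0 with spike-in scaling. By the median over the probes of a gene 1 was lower and 1 higher. In the main scaling the 2 lower genes were Cenpc1, which ties the inner kinetochore to centromeric chromatin, at -1.44, and Ndc80, which binds microtubules, at -1.19. The highest were Spc24 at 0.97, a partner of Ndc80 in the same complex, and Cenpm at 0.77. The levels of Ndc80 were 0.310, 0.136, 0.536 and 0.467, so its order of arrays was that of Mki67. Cenpe and Cenpf, picked for low values, stood below every gene with a value on this list.

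Of 35 spindle and cytokinesis genes 4 were over 2-fold lower with bilberry (11.4%) and 0 higher, with a median log2 ratio of -0.18, which was 0.12 under normexp. Past 2-fold, 0 were lower and 4 higher under normexp, 1 and 0 under its refit, and 34 and 0 with spike-in scaling. By the median over the probes of a gene 2 were lower and 0 higher. The lowest was Kif20b, a kinesin of late division, at -2.83, with levels of 0.264, 0.0370, 0.415 and 0.344. Hmmr, a spindle-associated protein, followed at -1.66. The highest were the motors Kif18b at 0.79 and Kifc1 at 0.48. Of 24 genes of chromosome structure 7 were lower past 2-fold (29.2%) and 3 higher (12.5%). Under normexp 4 were lower and 2 higher, and with spike-in scaling 18 were lower and 0 higher. Smc4, a subunit of condensin, was at -2.79, with levels of 25.7, 3.71, 29.2 and 23.4, and Smc3, a subunit of cohesin, was at -2.46. On the other side Cdca5, which protects cohesin, was at 1.48 and the histone gene H2ax at 1.19. The other lower genes of this list, named after their values were seen, were the cohesin genes Smc1a at -1.60 and Nipbl at -1.78, the topoisomerase gene Top2b at -1.15, Rif1 at -1.12 and Atrx, whose probe was not detected on all 4 arrays.

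In the main scaling, the lists of mitotic regulators and of DNA replication genes each had more genes higher than lower past 2-fold with bilberry. Of 34 mitotic regulators 6 were over 2-fold higher with bilberry (17.6%) and 0 lower, with a median log2 ratio of 0.66, which was -0.87 with spike-in scaling. With that scaling 0 were higher and 11 lower past 2-fold. Mybl2, a transcription factor of cycling cells, was highest at 1.68 and the phosphatase gene Cdc25a next at 1.16, while the kinase gene Mastl at -0.28 and the phosphatase gene Cdkn3 at -0.18 were lowest. Of 49 replication genes 18 were over 2-fold higher (36.7%) and 1 lower, with a median of 0.83, or -0.70 with spike-in scaling. Under normexp 6 were higher and 1 lower, and with spike-in scaling 0 were higher and 15 lower. Mcm5, a subunit of the replicative helicase, was at 1.70, with levels of 3.75, 12.2, 9.32 and 7.05. Rrm2, which makes deoxynucleotides, was at 1.66. The only lower replication gene was Rfc1, the large subunit of the clamp loader, at -1.44, and the kinase gene Cdc7, which fires replication origins, was next at -0.47. That most replication genes lay above DMSO in the main scaling, and Mki67, Cenpe and Cenpf below it, was part of how the 3 genes were picked.

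With delphinidin the list medians were 0.74 for kinetochore, 0.60 for spindle, 0.71 for mitotic regulators, 0.16 for chromosome structure and 0.90 for replication genes. With cyanidin they were 0.42, 0.38, 0.45, 0.25 and 0.52 in the same order. Past 2-fold, 19 replication genes were higher with delphinidin and 1 with cyanidin, against 2.88% and 2.35% of all genes. Mki67 at 0.61 with delphinidin lay near the spindle median, and Cenpe at 0.28 and Cenpf at 0.22 lay below those of the kinetochore and spindle lists. With cyanidin Cenpe at -0.15 and Cenpf at 0.00 lay below the median of every cell cycle list.

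Long transcripts that are not on the 5 cell cycle lists were set beside the 5 genes. Several of them encode proteins with known roles at the centrosome, spindle or checkpoints, such as Akap9, Tpr, Apc, Pcm1, Cep350 and Atm, so the list is not free of cell cycle genes. Of 57 with a value 9 were over 2-fold lower with bilberry (15.8%, against 7.29% of all genes) and 1 higher (1.75%, against 6.58%), with a median log2 ratio of -0.23. The median of this list was -0.03 with delphinidin and -0.11 with cyanidin, or 0.23 and 0.14 with spike-in scaling. Akap9, a scaffold protein of the Golgi and centrosome, had the lowest ratio at -2.86, with levels of 4.04, 0.555, 3.59 and 3.62. Tpr, a protein of the nuclear pore that also takes part in the spindle checkpoint, was next at -2.10. The highest were the chromatin remodeler gene Chd7 at 1.06 and Vps13a, a lipid transfer protein, at 0.96. By the median over the probes of a gene, 5 of the 57 genes of this list were lower and 2 higher past 2-fold. With spike-in scaling 50 of these genes were lower and 0 higher, with a median of -1.76. There 59.8% of all probes were lower and 0.668% higher. Under normexp 7 were lower and 8 higher, where 1.93% of all probes were lower and 62.6% higher. Whether length moved with the bilberry ratio over all genes was not tested.

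**Figure D3:**
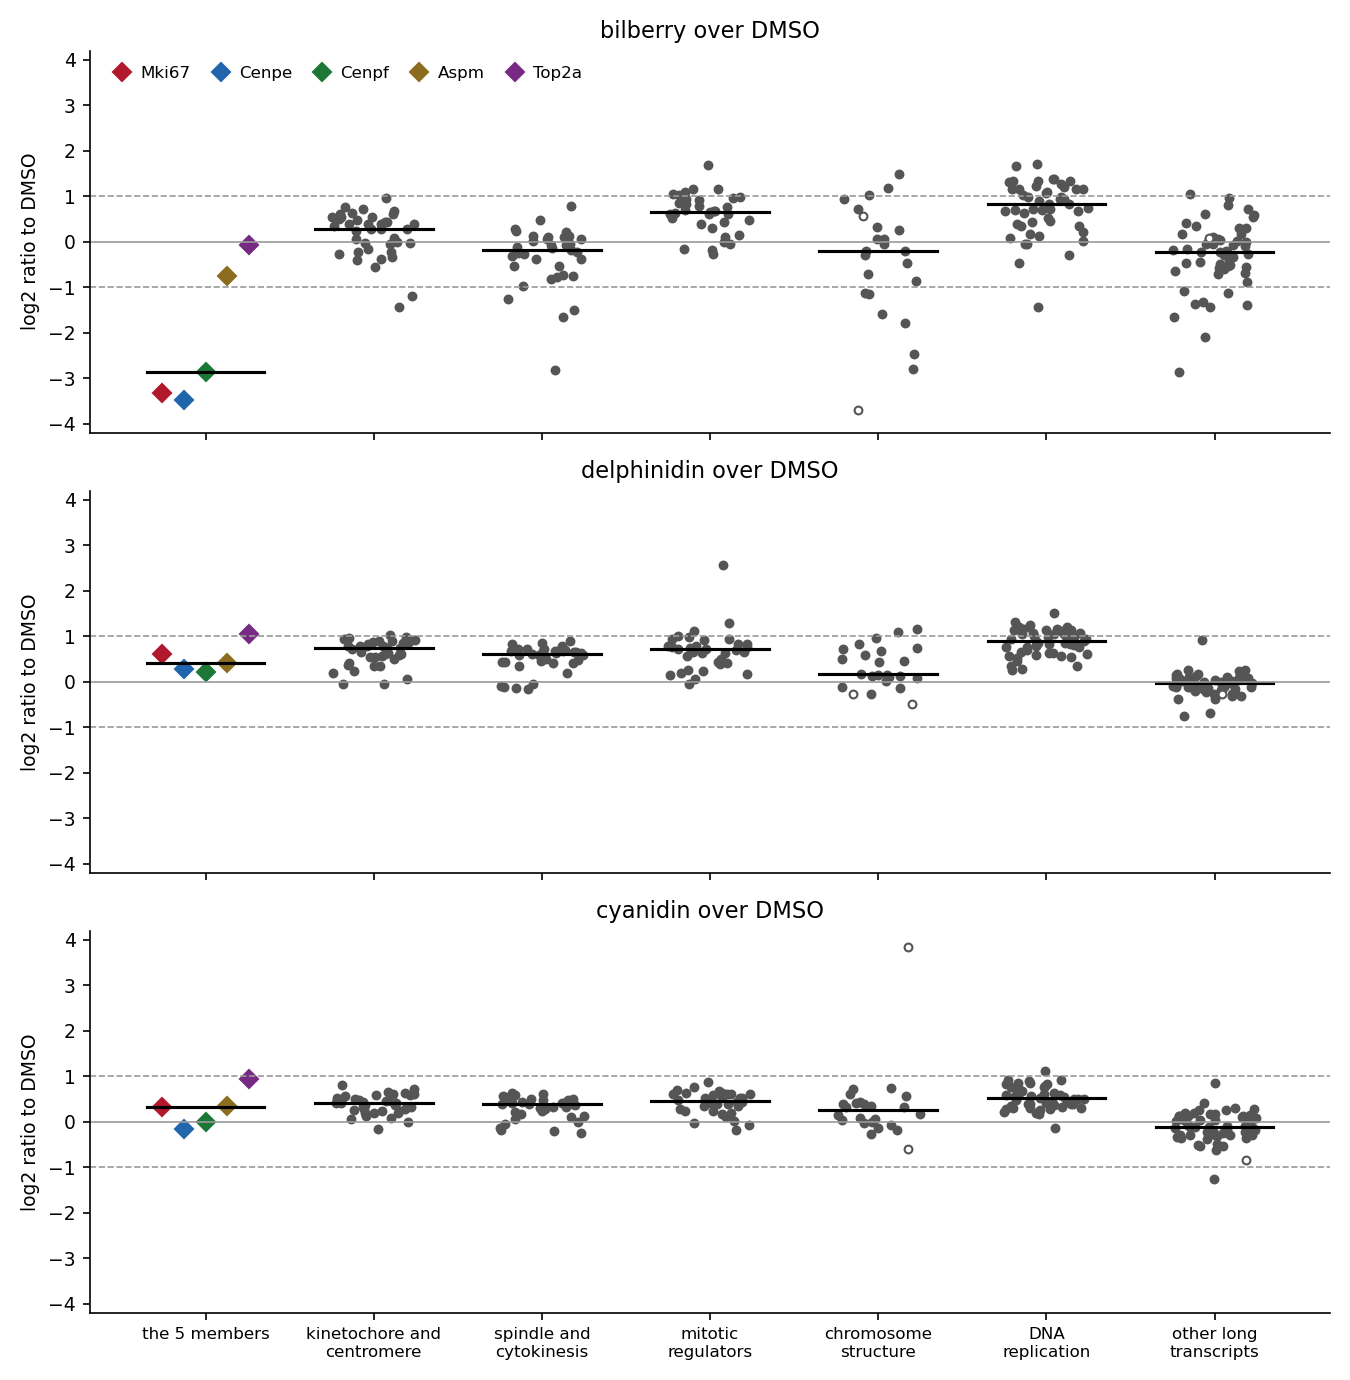
Log2 ratio to DMSO of each list gene, by its brightest probe, in a panel per treatment, with a bar at the median of each list, dashed lines at 2-fold and open points for genes not detected on all 4 arrays. Mki67, Cenpe and Cenpf lie below -2.8 with bilberry, far under the medians of the kinetochore list at 0.29 and the replication list at 0.83, which are -1.24 and -0.70 when scaled by spike-ins.

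The genes with the pattern most like that of Mki67, Cenpe and Cenpf were sought by the Euclidean distance of the 3 log2 ratios from the mean of these genes, which lay at -3.22 for bilberry, 0.37 for delphinidin and 0.06 for cyanidin. The search ran over 13425 genes detected on the DMSO, delphinidin and cyanidin arrays, and it rests on 4 arrays. The nearest was Hmgn5, which encodes a nucleosome-binding protein, at a distance of 0.42, with log2 ratios of -3.63, 0.33 and -0.06. Smc4 followed at 0.50, Ankrd12 at 0.54, Kif20b at 0.58 and Ppig, a cyclophilin linked to splicing, at 0.61. Aspm ranked 1186 at a distance of 2.49 and Top2a 6038 at 3.34. The other probe of Hmgn5 had a bilberry log2 ratio of -3.09 and that of Smc4 -2.22. Ankrd12 had 5 other probes, and those at chr17:65936804-65936863 and chr17:65949383-65949442, the 2 farthest toward the 5′ end, had ratios of -0.18 and -0.30 against -3.63 at its brightest probe. Of its remaining probes, that at -3.12 was detected on all 4 arrays. Those with measured ratios of -3.30 and -1.94 were not well above background with bilberry. Kif20b and Ppig each had another probe detected on all 4 arrays, at -1.76 and -3.20, and a probe that was not well above background with bilberry.

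**Figure D4:**
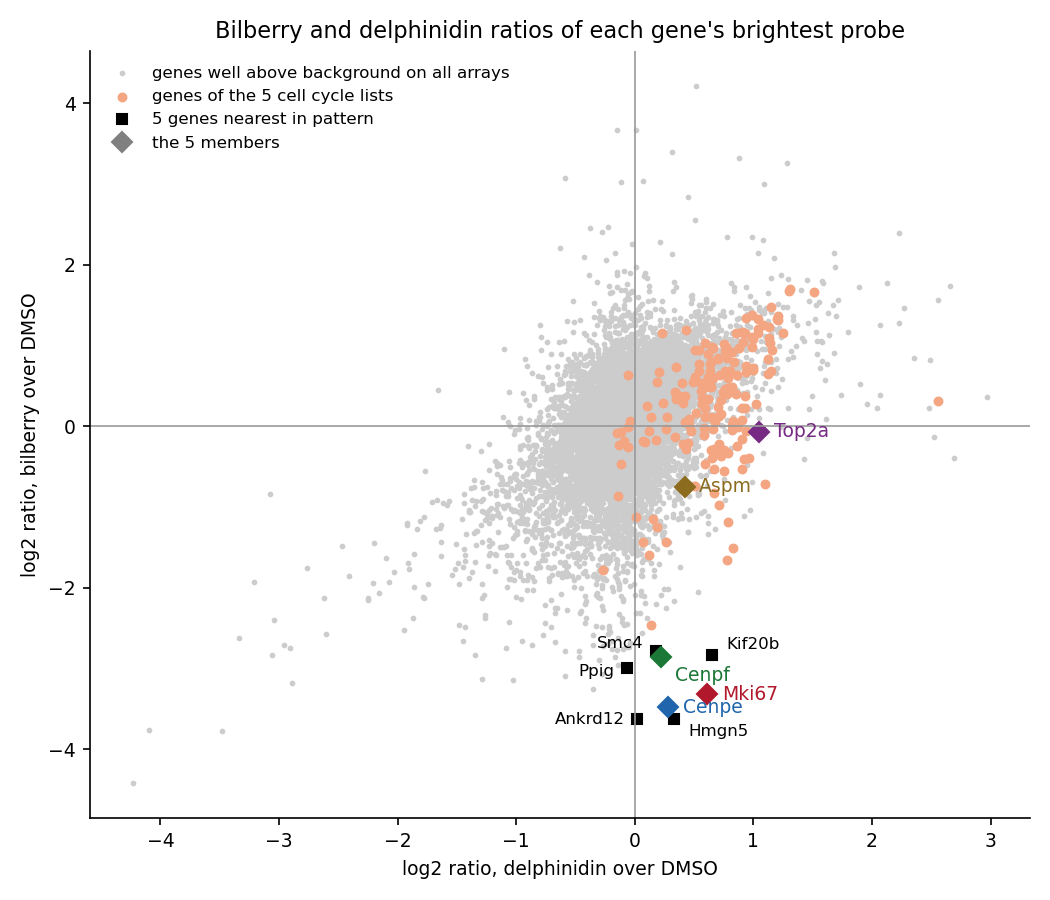
Log2 ratio to DMSO with bilberry against that with delphinidin for the brightest probe of each of 12896 genes detected on all 4 arrays, with genes of the 5 cell cycle lists, the 5 members and the 5 nearest genes marked. Mki67, Cenpe and Cenpf lie at the bottom near Hmgn5, Smc4, Ankrd12, Kif20b and Ppig, apart from most cell cycle genes, while Top2a lies at -0.07 with bilberry and 1.05 with delphinidin.

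Relative to the 75th percentile, Mki67, Cenpe and Cenpf were lower with bilberry by 7.27-fold to 11.1-fold at their brightest probes, Aspm was lower by less than 2-fold, and Top2a was not lower past 2-fold at any probe. With spike-in scaling, which moves all genes alike and their median to -1.17, all 5 were lower past 2-fold at their brightest probes. Under normexp, with a median of all genes of 1.41, Cenpf was at -1.82 and Aspm at 0.67. Under its refit without spots of marked local background, Cenpf was at -2.49 and Aspm at -0.43. With delphinidin all 5 were above DMSO at their brightest probes, from 0.22 for Cenpf to 1.05 for Top2a on the log2 scale.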

How the data were processed

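Total RNA of 3T3-L1 cells was labeled with Cy3 and hybridised to 4 Agilent arrays, 1 per condition. The authors deposited the Feature Extraction output, whose processed signal is a spot intensity with background subtracted. The deposited series table holds the same intensity, and its largest relative difference was 0. The scaling named in the study's methods is not in the deposited values.

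Processed signals were scaled to the 75th percentile of the 43379 non-control spots of an array, then taken as log2. Outlier-marked spots were left out (701 to 875 per array), and 1801 of 41174 probes then lacked a value on at least 1 array. Spots of a probe were averaged on the log2 scale. For each gene the brightest probe on average, among those with values on all 4 arrays, was used. Of all probes, 24375 were named through RefSeq accessions (GRCm38.p6, names only). A probe not well above background in 1 condition has only a bound, set by the dimmest well-detected signal of that array. The call was a linear ratio past 2-fold. The number of arrays limits the precision. Replicate spots (245 probes spotted 10 times) had a median SD of 0.053 to 0.063 on the log2 scale.

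The named genes are all member probes, the 2 highest and the 2 lowest of each list by bilberry ratio among genes detected on all 4 arrays, and the 5 genes nearest in pattern; list genes named beyond this rule were chosen after their values were seen or for their known role. The members and lists were chosen with earlier results of these data known. Alternatives covered background correction by normexp with an offset of 50 (limma 3.58.1 in R 4.3.3), scaling and marked spots. They also covered threshold, dim probes, the probe of a gene and the place on the array. Steps were tested on simulated data. Python 3.11.15 with pandas 2.3.3 and numpy 2.4.6 was used.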

Additional observations from a re-analysis of the deposited data

Results flagged for a closer look

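The 10 spike-in controls, which are used only for the alternative scaling, were brighter with bilberry than with DMSO by a median of 0.95 on the log2 scale (0.10 to 1.18), against -0.03 with delphinidin and 0.01 with cyanidin. This value comes from control spots outside the main measurement.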

How the results depend on the processing

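No paired analysis was possible because each condition has 1 array, and for the same reason no array could be left out. The planned description by protein length was not run, as no protein or transcript lengths were used here. At the brightest probes of the 5 genes no value past 2-fold changed direction under an alternative. At other probes the middle and 5′ probes of Cenpe and the dim probe of Cenpf turned under normexp, to 0.57, 2.04 and 2.46, and the dim Cenpf probe also under the refit, to 0.38. Mki67, Cenpe and Cenpf ranged from -4.85 to -3.05, -5.01 to -3.17 and -4.39 to -1.82 with bilberry, Aspm from -2.28 to 0.67 and Top2a from -1.60 to 0.56. With delphinidin Top2a ranged from 1.03 to 1.31. With cyanidin Cenpe ranged from -0.23 to 0.17, Cenpf from -0.05 to 0.53 and Aspm from -0.12 to 0.60, so these had no settled direction.

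The count of member probes lower with bilberry, 7, was 4 under normexp and 11 with spike-in scaling. The count higher with bilberry, 0, was 7 under normexp, 1 with quantile normalization and 2 at a 1.5-fold threshold. The count higher with delphinidin, 2, was 1 under normexp and under the normexp refit without marked local background, 5 at 1.5-fold and 0 at 3-fold. With cyanidin the 0 lower probes became 1 at 1.5-fold, and the 1 higher probe became 0 under both normexp fits, at 3-fold and with dim probes removed, and 3 with spike-in scaling, at 1.5-fold and less the neighbouring spots. The 1 probe past 2-fold between delphinidin and cyanidin became 0 under both normexp fits, at 3-fold and with dim probes removed, and 2 at 1.5-fold.

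The median bilberry ratio of the 5 genes, -2.86, was -1.82 under normexp, -2.49 under its refit, -4.39 with spike-ins, -1.94 by the median of all probes of a gene and -3.29 less the neighbouring spots. With delphinidin, 0.42 became 0.68 with spike-ins and 0.64 less the neighbours, and with cyanidin 0.32 became 0.56 with spike-ins. Of the cell cycle lists together, 14 genes lower with bilberry became 5 under normexp, 8 under its refit, 106 with spike-ins and 7 at 3-fold. The shares of all probes that were lower were 1.93% under normexp, 1.95% under its refit and 59.8% with spike-ins. The 27 higher genes became 0 with spike-ins, 68 at 1.5-fold and 3 at 3-fold. Of the long transcripts, 9 lower became 50 with spike-ins, 14 at 1.5-fold, 3 at 3-fold and 5 by the probe median, and 1 higher became 8 under normexp, 6 at 1.5-fold, 2 by the probe median and 0 under the refit, with spike-ins and at 3-fold.

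Under normexp the other 4 bright probes of Mki67, Cenpe and Cenpf stayed below DMSO. That fit gave a background mean of -345 on the bilberry array against -5.65 in the refit. Signal near background limits the dim probes: of 14, 2 were well above background on no array.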
